A study of Drosophila melanogaster with 10 samples.

Results

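Hox genes and their cofactors give cells along the head-to-tail axis their segmental identity, and their levels were examined here in cells sorted by a neuronal reporter from cultured Drosophila melanogaster embryo cells. Of 10 genes named for this group, 5 had at least 1 probe set of their own on the array, among 11982 genes measured in all, and together they had 7 of 18769 probe sets. The measured genes were the Hox genes pb, Dfd, Scr and Antp, and tsh, a trunk identity gene that works beside them. The Hox genes lab, abd-A and Abd-B and the cofactors exd and hth had no probe set carrying their symbol alone in the platform annotation and were not analysed here. A gene with several probe sets was represented by the one with the highest mean over the 10 arrays.

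Hox proteins are homeodomain transcription factors whose genes lie in clusters, and each gene is active in its own stretch of the body. In the fly, pb and Dfd act in the head, Scr at the border of head and thorax, and Antp in the thorax, while abd-A and Abd-B act in the abdomen. In the nerve cord these factors set which segments form or keep particular neurons, and neurons continue to express them after they differentiate. The homeodomain protein Exd binds DNA together with Hox proteins and enters the nucleus with Hth, and Tsh is a zinc finger protein of trunk segments.

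The cells came from 2 transgenic strains with 5 arrays each. In the Cha strain, 7.4 kb of DNA from the choline acetyltransferase gene drove Gal4 and thereby a UAS-GFP reporter, which marks cells in which that fragment is active. In the Gad strain, 2.1 kb of DNA from the Gad1 gene, written Gad1(s), drove a red fluorescent protein directly, with no Gal4 step. Parents of both strains were 2 weeks old, embryos were dissociated as gastrulation began, before neurons form, and the cells grew at 25 °C and were sorted by fluorescence. The labels give the culture time as 5 to 7 days in one field and up to 8 days in another. Nothing in them states that each sample was a culture of its own, so p-values measure the spread among these arrays, part of which may be technical.

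Each value is a deposited log2 level made by RMA, which subtracts background, gives all arrays 1 distribution and summarises the probes of a probe set. Differences are Cha minus Gad, tested with limma over all 18769 probe sets, and a probe set passed at a Benjamini-Hochberg adjusted p under 0.05. Arrays correlated at r = 0.971 to 0.990 within Cha, 0.989 to 0.997 within Gad and 0.954 to 0.983 between the groups over all tested probe sets. The neuronal marker elav had a level of 9.51 ± 0.56 in Cha and 9.10 ± 0.88 in Gad (SD, n = 5 each). Neither ChAT (difference 0.68, limma adjusted p = 0.0788) nor Gad1 (0.12, adjusted p = 0.646) passed, and Gad1 had its higher mean in Cha, so Cha and Gad stand for the labelled strains in what follows. RMA values have a floor above zero, which compresses the differences of faint genes. A probe set was called dim on an array when it lay at or below percentile 40 there.

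Antp and Scr were higher in Cha, and none of the 5 measured genes was higher in Gad past the threshold. Antp was 2.04-fold higher (95% interval 1.61 to 2.59) and Scr 1.55-fold higher (1.25 to 1.91). Dfd and tsh, both well detected, did not pass, and pb was dim on all 10 arrays. These 2 of 5 genes stand beside 17.7% of all genes called in either direction, 7.84% called higher in Cha and 9.85% called higher in Gad. By probe set, 3 of 7 were called higher in Cha and 0 higher in Gad, against 6.68% and 7.48% of all probe sets, or 14.2% in either direction. With so few members, a count above the background is no more than a description. In sorted bulk cells, a lower share of cells that express a gene and less RNA per cell cannot be told apart.

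**Figure D1:**
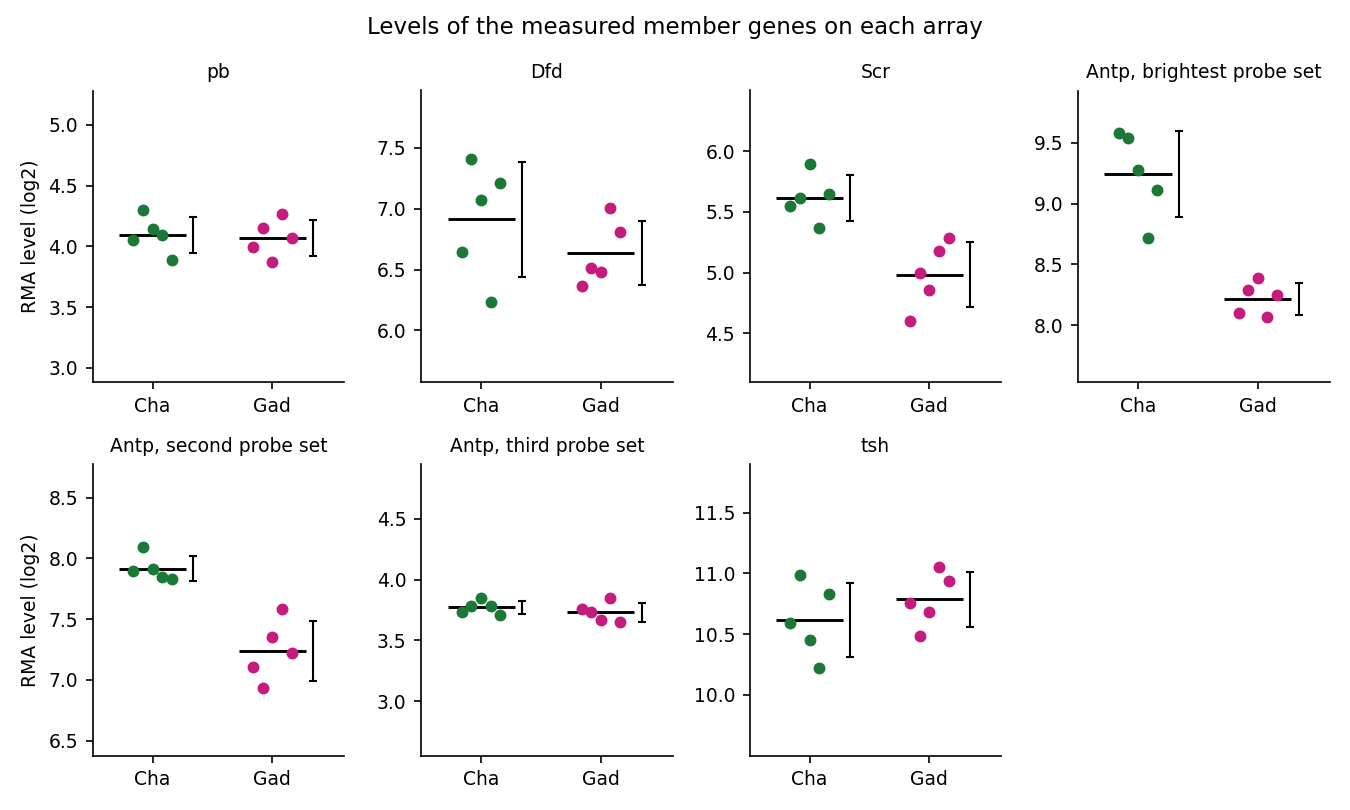
RMA level (log2, vertical axis, each panel spanning the same range of log2 units) of the 7 probe sets of pb, Dfd, Scr, Antp and tsh on the 5 Cha arrays (left, green) and 5 Gad arrays (right, magenta). Points are arrays, horizontal lines are means and error bars are 1 SD. The groups are apart for Scr and for both brighter Antp probe sets and overlap in the other panels.

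Antp, the Hox gene of the thorax, was the member with the largest difference. Its brightest probe set, 1640208_s_at, had levels of 9.58, 9.54, 9.27, 8.72 and 9.11 on the Cha arrays, against 8.10, 8.29, 8.38, 8.06 and 8.25 on the Gad arrays. The lowest Cha array, replicate 4, lay above the highest Gad array, so the groups did not overlap, as was the case for 13.5% of all genes. The means were 9.25 ± 0.35 in Cha and 8.21 ± 0.13 in Gad (SD, n = 5 each), with a difference of 1.03 (SE 0.16, limma adjusted p = 0.0022). An exact 2-sided permutation test gave p = 0.00794, the smallest value that 5 arrays against 5 allow. Among all genes, 1.89% had a difference at least this high.

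The other probe sets of Antp were read separately, because they can cover different transcripts of this gene. On 1624759_s_at the levels were 7.90, 8.09, 7.91, 7.85 and 7.83 in Cha, against 7.10, 6.93, 7.35, 7.58 and 7.22 in Gad. The Cha arrays were close together there (SD 0.10) and all lay above the Gad arrays (SD 0.25), with a difference of 0.68 (SE 0.12, limma adjusted p = 0.0044). The third probe set, 1638665_at, was dim on all 10 arrays (means 3.77 in Cha and 3.73 in Gad) and differed by 0.04 (adjusted p = 0.746). Within arrays, the brightest probe set exceeded the second by 1.33 ± 0.30 in Cha and 0.98 ± 0.31 in Gad. That gap of 0.35 between the groups did not pass an exact 2-sided permutation test (p = 0.119, n = 5 each), so unequal changes of the 2 probe sets were not shown. The Release 6 gene table places CG46458 and lncRNA:CR43252 over Antp, and where the probes lie relative to them was not examined, so their signal cannot be told apart from that of Antp here.

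Scr, which specifies the labial segment and the first thoracic segment, lay at percentiles 36.0 to 51.4 of its arrays. Its levels were 5.55, 5.61, 5.89, 5.37 and 5.65 on the Cha arrays, against 4.60, 5.00, 4.86, 5.18 and 5.29 on the Gad arrays. All Cha arrays lay above all Gad arrays, although Cha replicate 4 and Gad replicate 5 were close. The means were 5.61 ± 0.19 in Cha and 4.98 ± 0.27 in Gad (SD, n = 5 each), with a difference of 0.63 (SE 0.14, limma adjusted p = 0.0131, exact permutation p = 0.00794). Scr was dim on 1 Gad array and on 0 Cha arrays, and the percentile that marks dim probe sets lay at 4.75 to 4.82 on the Gad arrays, so the fold may be compressed. In the same gene table, 5 long noncoding RNA genes overlap Scr.

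Dfd, which patterns the mandibular and maxillary segments of the head, did not pass. Its levels were 6.64, 7.41, 7.07, 6.23 and 7.21 in Cha, against 6.37, 6.51, 6.48, 7.00 and 6.81 in Gad. The lowest of the 10 arrays was Cha replicate 4 and the highest Cha replicate 2, so the Cha group spanned the whole Gad group. The means were 6.91 ± 0.47 in Cha and 6.63 ± 0.26 in Gad, and the difference was 0.28, with a 95% interval of -0.20 to 0.75 (limma adjusted p = 0.453). The interval includes the difference found for Scr.

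pb, a Hox gene of the adult mouthparts, ran from 3.89 to 4.30 in Cha, against 3.87 to 4.26 in Gad. It was dim on every array, at percentiles 13.3 to 28.9 of its array, and its difference of 0.02 (interval -0.19 to 0.24) says little about a gene at this signal.

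tsh, which promotes trunk identity, lay at percentiles 90.4 to 94.8 of its arrays. Its levels were 10.59, 10.99, 10.45, 10.22 and 10.83 in Cha, against 10.76, 10.49, 10.69, 11.06 and 10.94 in Gad. The groups overlapped over most of their range. The means were 10.62 ± 0.30 in Cha and 10.79 ± 0.22 in Gad, and the difference was -0.17, with a 95% interval of -0.51 to 0.17 (limma adjusted p = 0.527). A difference as large as that of Antp lies outside this interval. tio, the paralogue of tsh in the fly, differed by -0.43 (means 5.16 in Cha and 5.59 in Gad, adjusted p = 0.115) and is named here after its values were seen.

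**Figure D2:**
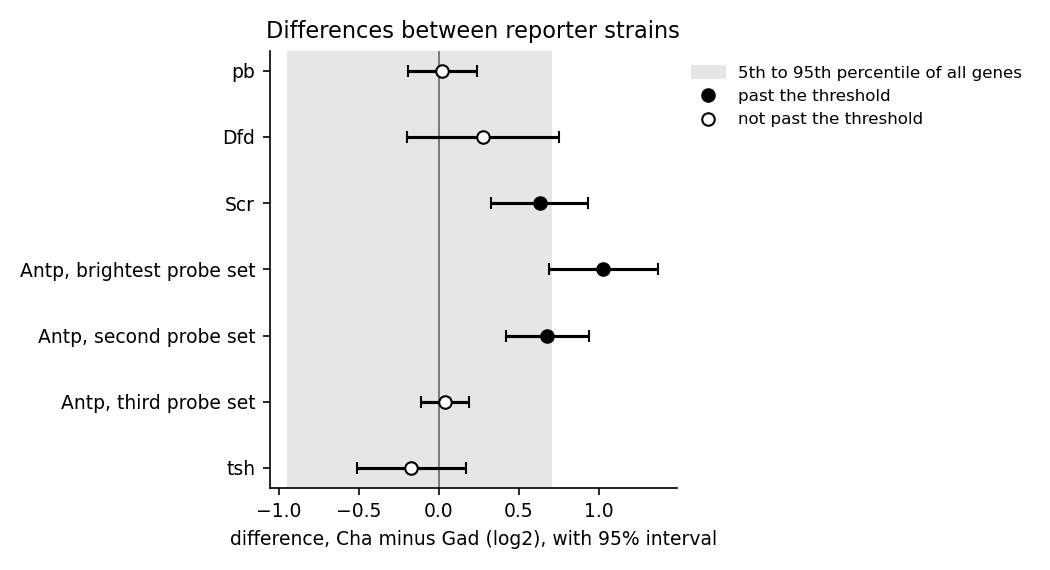
Differences, Cha minus Gad on the log2 scale (horizontal axis), of the 7 probe sets of the member genes, with 95% intervals from limma. Filled points passed the threshold, and the grey band runs from -0.94 to 0.70, the 5th to the 95th percentile of all genes; both brighter Antp probe sets and Scr are filled.

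The Hox genes measured here lie in the Antennapedia complex, in which gene order largely, but not in every case, follows the order of action along the body. In gene order, from pb (dim on all 10 arrays) through Dfd and Scr to Antp, the differences were 0.02, 0.28, 0.63 and 1.03. Neighbours in this order had overlapping intervals (Dfd -0.20 to 0.75, Scr 0.33 to 0.94, Antp 0.69 to 1.37), and differences between these genes were not tested. The value of 1.03 is that of the brightest Antp probe set. The second gave 0.68, the third, dim on all 10 arrays, 0.04, and the average of the Antp probe sets 0.58. The step from Scr to Antp therefore depends on the probe set chosen. The gene table lists 44 genes from lab to Antp, of which 16 had a probe set of their own, and this stretch was examined after values were seen. Of these 16, 2 were higher in Cha (Scr and Antp), 1 was higher in Gad, and 13 did not pass, so that 3 of 16 were called beside 17.7% of all genes. Of the 16, 8 lay above percentile 40 on fewer than 5 of the 10 arrays.

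The gene higher in Gad was Ama, which encodes a secreted immunoglobulin-domain adhesion protein and lies between bcd and Dfd. Its means were 8.69 ± 0.62 in Cha and 10.15 ± 0.52 in Gad, with a difference of -1.47 (SE 0.32, limma adjusted p = 0.012), and its groups did not overlap. The homeobox genes zen2 and zen, which act in the early embryo, were dim on all arrays, with differences of 0.18 each (adjusted p = 0.253 and 0.255). For the Bithorax complex, which holds abd-A and Abd-B, the long noncoding RNA lncRNA:iab8, named after its values were seen, had means of 5.20 ± 0.15 in Cha and 5.36 ± 0.14 in Gad on its brightest probe set (difference -0.16, adjusted p = 0.332). Within a list of 9 cluster genes outside the members, 6 were measured and 0 passed in either direction by limma. Of these 6 genes, 5 were dim on all Cha arrays and 4 on all Gad arrays. The count of 0 thus comes mostly from dim genes, whose differences are compressed, and cannot be weighed against the 17.7% of all genes that passed.

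**Figure D3:**
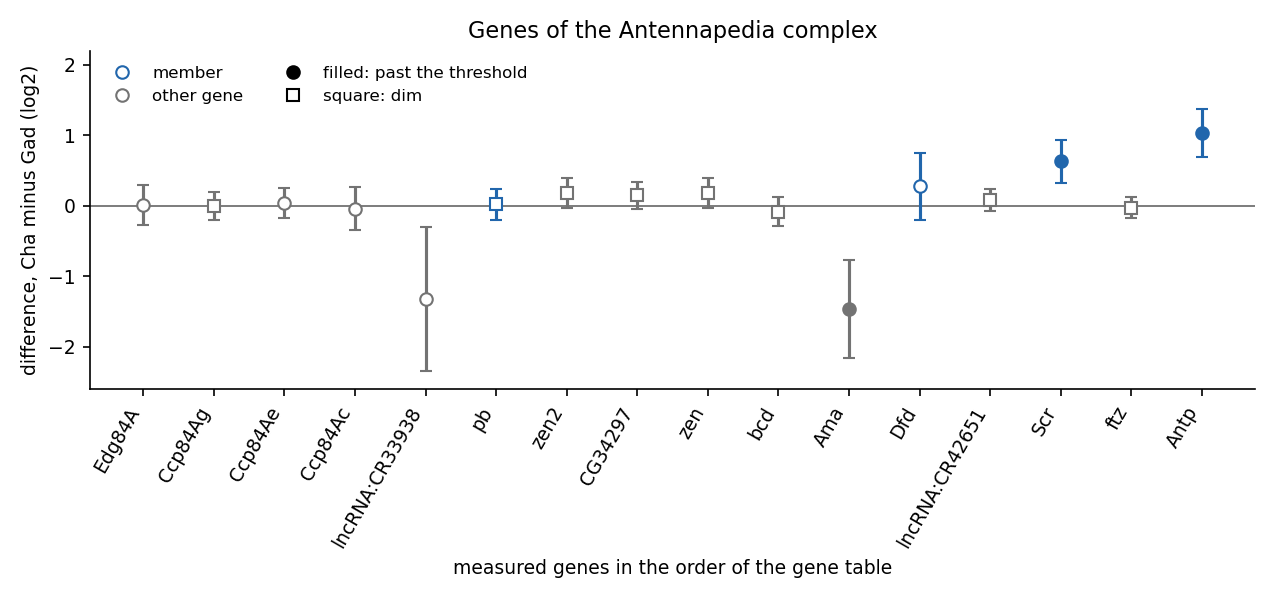
Difference, Cha minus Gad on the log2 scale (vertical axis), of the 16 measured genes from lab to Antp in the order of the gene table, with 95% intervals; horizontal spacing is rank, not distance. Blue marks members, filled symbols passed the threshold and squares are dim genes: Scr and Antp are filled above 0 and Ama is filled below it.

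Within each group the members also varied from array to array. After each group's mean was subtracted, Dfd and tsh deviated together over the 10 arrays (Pearson r = 0.84, Spearman rho = 0.77), with r = 0.87 in Cha and 0.79 in Gad. Cha replicate 2 was highest and Cha replicate 4 lowest in both genes, and Gad replicate 4 was the highest of its group in both. Without the 2 arrays farthest from the median of Dfd, r was 0.66. Dfd and Scr gave r = 0.67 and rho = 0.66, and r was 0.71 without the 2 arrays farthest from the median of Scr. Scr and tsh gave r = 0.36 and rho = 0.33. Antp had lower values by rank, with r = 0.23 and rho = -0.04 against Scr, 0.39 and 0.02 against Dfd, and 0.36 and 0.16 against tsh. With Dfd and tsh its r was positive in Cha (0.56 and 0.64) and negative in Gad (-0.38 and -0.60), over 5 arrays each. These values describe 6 pairs of genes read from the same arrays, which share their cells, RNA and normalization.

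**Figure D4:**
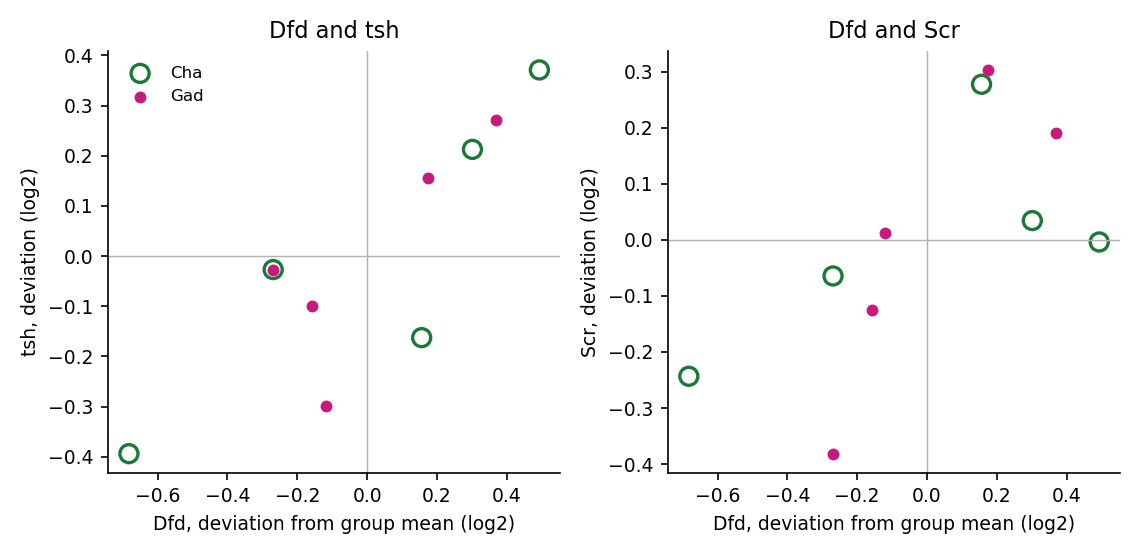
Deviation of each array from its group mean (log2) for Dfd against tsh (left) and for Dfd against Scr (right), with large open green circles for the 5 Cha arrays and small filled magenta circles for the 5 Gad arrays. Arrays with high Dfd tend to have high tsh, with Cha replicate 4 at the lower left and Cha replicate 2 at the upper right of the left panel.

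The genes whose levels were most like those of Antp over the 10 arrays, out of 8933 genes that were not dim, were CG13398 (r = 0.976), Pdk, a pyruvate dehydrogenase kinase (0.972), and Hr51, a nuclear receptor (0.967). For Scr they were RhoGAP102A (0.936), Sap47, a synapse-associated protein (0.933), and Glut1, a glucose transporter (0.930). These 6 genes were themselves higher in Cha, by 0.67 to 1.26, so the likeness includes the difference between the groups.

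Some genes listed for a cluster of thoracic neurons that forms under Antp were higher in Gad. In the embryonic nerve cord, a cluster of thoracic neurons that express ap forms under Antp, hth and exd together with cas and grh, and some of its cells make the peptides Nplp1 or FMRFa. All 14 genes listed for this cluster had a probe set, and 6 passed as higher in Gad and 1 as higher in Cha. Over all genes, 9.85% were called higher in Gad and 7.84% higher in Cha. The list had a median difference of -0.57, against 0.04 over all genes. Nplp1 had means of 10.39 ± 0.44 in Cha and 12.26 ± 0.26 in Gad (difference -1.87, SE 0.20, limma adjusted p = 0.0003), and its groups did not overlap. gbb, the ligand through which these neurons are induced to make FMRFa, differed by -0.96 (SE 0.11, adjusted p = 0.0005). ap differed by -1.16 (SE 0.20, adjusted p = 0.0044) on its brightest probe set, while another gave -0.33 (adjusted p = 0.352). The exception was kn, a factor that starts the programme of these neurons and was higher in Cha (9.11 ± 0.43 in Cha and 7.97 ± 0.32 in Gad, difference 1.13, adjusted p = 0.0065), although its groups overlapped. A second probe set of kn was dim on all arrays (-0.08). The count of 1 gene higher in Cha was 2 without Cha replicate 4.

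Several peptide genes known from restricted sets of segmental neurons were also lower in Cha. The 8 with a probe set had a median difference of -1.42. Of them, 0 passed as higher in Cha (7.84% of all genes) and 6 as higher in Gad (9.85% of all genes). Besides Nplp1, these included Burs, a subunit of bursicon (-1.70, SE 0.27, limma adjusted p = 0.0031), CCAP (-1.81, SE 0.31, adjusted p = 0.0043) and FMRFa (-1.41, SE 0.27, adjusted p = 0.0070). CCAP had means of 5.69 ± 0.46 in Cha and 7.50 ± 0.65 in Gad, and its groups did not overlap. Nplp1 and FMRFa are in both lists, so the counts are not independent of each other.

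Of other factors of body pattern, 2 of 14 and 3 of 11 measured genes passed in the lists that follow, beside 17.7% of all genes. Of 14 gap and head gap factors, tll was higher in Gad (5.16 ± 0.31 in Cha and 6.84 ± 0.29 in Gad, difference -1.68, limma adjusted p = 0.0003) and disco-r, one of a pair of factors that act with Dfd in the fly head, was higher in Cha (0.71, SE 0.13, adjusted p = 0.0065). A second probe set of disco-r was dim on all arrays (-0.10). Without Cha replicate 4 the count in Cha was 2, and without Cha replicate 2 the count in Gad was 2. Of 11 pair-rule and segment polarity genes, slp2 (-1.23, SE 0.23, adjusted p = 0.0060), opa (-0.75) and gsb-n (-0.36) were higher in Gad and 0 were higher in Cha. The groups overlapped for opa. Leaving out replicate 3 of either group or Gad replicate 5 reduced the count of 3 to 1. The call of opa was further lost when Cha replicate 1, Cha replicate 2 or Gad replicate 1 was left out, and that of gsb-n when Cha replicate 5 or Gad replicate 2 was.

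A further list held 17 genes, chosen as partners of tsh and hth or as genes of limb, eye and antenna. Of these, vg (1.15, SE 0.18, limma adjusted p = 0.0027) and ct (0.66, SE 0.14, adjusted p = 0.0098) were higher in Cha. The gene higher in Gad was ap, which is also in the apterous cluster list. Beside both lists in this paragraph stand 7.84% of all genes called higher in Cha and 9.85% called higher in Gad. Other probe sets of vg (0.33) and ct (0.38 and 0.18) did not pass, and without Cha replicate 4 the count in Gad was 2. Of 9 motor neuron identity factors, only Oli passed (0.76, adjusted p = 0.0308), and the list median was 0.42. Its groups overlapped, and replicates 2, 3 and 5 of either group were each needed for the call (adjusted p = 0.0589 to 0.0786 without one of them). The count in Cha was 2 without replicate 4 of either group, and 1 gene was called higher in Gad without Gad replicate 1.

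Genes for proteins that hold Hox genes in their silent or active state were called about as often as all genes, of which 17.7% passed in either direction. Of 16 measured Polycomb group genes, which keep Hox genes off, 2 were higher in Cha and 1 in Gad. These were Psc (10.30 ± 0.47 in Cha and 9.34 ± 0.11 in Gad, difference 0.96, limma adjusted p = 0.0091), phol (0.60, adjusted p = 0.0213) and esc (-0.69, adjusted p = 0.0227), and for phol and esc the groups overlapped and the call was lost when replicate 2 of either group or Gad replicate 5 was left out. Of 16 measured trithorax group genes, which keep Hox genes on, trx was higher in Cha (0.62, SE 0.14, adjusted p = 0.0144) and ash2 in Gad (-0.47, SE 0.09, adjusted p = 0.0058). The count in Cha was 2 when Cha replicate 4 or Cha replicate 5 was left out, and that in Gad was 2 when Cha replicate 2 was. Of 4 measured cell death genes, which include Hox targets, skl was higher in Cha (0.99, SE 0.25, adjusted p = 0.0224), a call that was lost without Gad replicate 2 or Gad replicate 3.

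**Figure D5:**
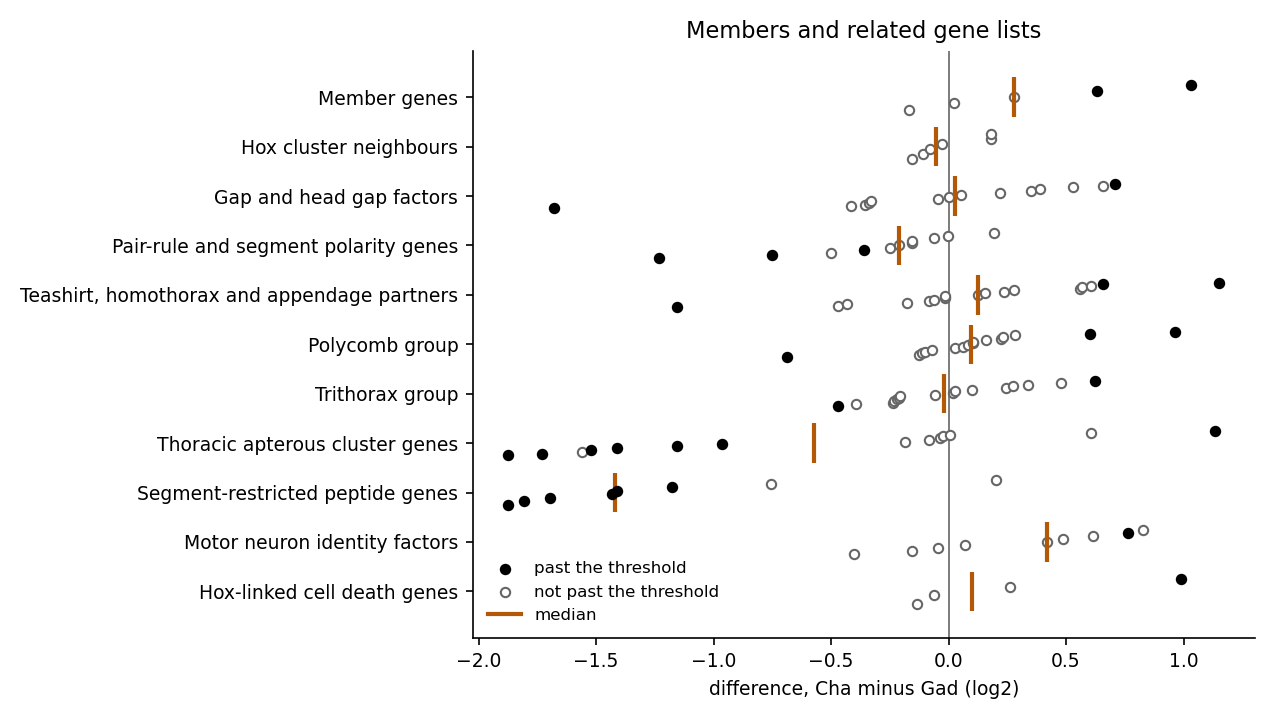
Differences, Cha minus Gad on the log2 scale (horizontal axis), of the 5 measured member genes and of the measured genes of 10 related lists. Each circle is a gene, filled where it passed the threshold, and bars are list medians, which lie at -1.42 for the segment-restricted peptide genes and at -0.57 for the apterous cluster genes.

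Markers of cell types moved between the groups as well, and their part in the results on Antp, Scr and the lists was not tested. Beside the marker counts in this paragraph and the next stand 7.84% of all genes called higher in Cha and 9.85% called higher in Gad. Of 12 measured neuron markers, 4 were higher in Cha and 0 in Gad. Without 1 array in turn the neuron count in Cha ran from 3 to 8, with 8 when Cha replicate 4 was left out. The mean log2 level of the neuron list ran from 9.71 to 10.51 over the Cha arrays and from 8.91 to 9.92 over the Gad arrays. Syn, which encodes synapsin, differed by 1.75 (limma adjusted p = 0.0003), more than Antp. Of 11 glia markers, 5 were higher in Gad, among them drpr (-0.75), with list means of 7.68 to 8.18 in Cha and 8.37 to 8.63 in Gad. Of 9 neuroblast markers, 4 were higher in Gad, among them pon (-0.84), with list means of 7.38 to 8.55 in Cha and 8.59 to 9.16 in Gad.

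Of 8 muscle markers, 4 were higher in Gad, among them Mlc2 (-1.10), with list means of 6.39 to 7.63 in Cha and 7.35 to 8.15 in Gad. That count fell to 1 when Gad replicate 3 was left out, and to 2 when any of Cha replicates 1, 3 and 5 and Gad replicates 4 and 5 was. Of 8 epithelial and tracheal markers, 3 were higher in Gad, among them Cht2 (-0.91), with list means of 7.58 to 8.11 in Cha and 8.06 to 8.57 in Gad, and the count was 1 when replicate 3 of either group or Cha replicate 2 was left out. Of 6 fat body markers, 4 were higher in Gad, with list means of 5.96 to 6.58 in Cha and 7.42 to 9.22 in Gad. Of 12 hemocyte markers, PPO1 (3.39) and PPO2 (1.73) were higher in Cha and 1 gene in Gad. That gene was srp (-1.73), named after its values were seen. Of the 12 differences, 6 lay above 0, and the list median was -0.01. List means were 6.72 to 7.52 in Cha and 6.53 to 7.03 in Gad. The hemocyte count in Gad was 2 when Gad replicate 1 or any of Cha replicates 1, 3 and 5 was left out. Dim on all 5 Cha arrays were 1 glia, 1 hemocyte and 1 fat body marker, and no neuron, muscle, neuroblast or epithelial marker was.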

How the data were processed

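Sorted cells gave total RNA, which carried a biotin label on Affymetrix arrays, per the labels. The deposited values are log2 levels from RMA, as the submitters' processing notes name it; its version is not given in the sources used here. No depth applies to arrays, and their number limits the precision. Array medians lay between 5.70 and 5.78. With 183 control probe sets removed, limma 3.58.1 under R 4.3.3 (lmFit, eBayes, no covariates) was run on 18769, with Benjamini-Hochberg adjustment over all of them. A single gene symbol was given for 13647, several for 402 and none for 4720; Entrez identifiers changed 0 symbols. Groups came from the sample titles. Single values were compared by exact permutation (SciPy 1.17.1).

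The members and lists were chosen with earlier results of these data known. Named genes were the members, up to 4 genes past the threshold with the smallest p per list (2 where 0 passed, and 2 per marker list), and the 3 genes most like each member that passed. The fit was tested on simulated data. It recovered 43.3% of seeded changes of 0.5 log2 units, 82.1% of those of 1 and 95.5% of those of 2. Of its calls there, 5.77% were false. A gene that did not pass may thus still differ by a small amount. Alternatives were normalization, removal of dim probe sets (above percentile 40 on fewer than 5 arrays), the prior, array weights, a replicate block, 1 probe set or an average per gene, and left-out arrays.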

Additional observations from a re-analysis of the deposited data

Results flagged for a closer look

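In 1 of 90 groups of 5 arrays examined for the named genes, 1 array stood apart from the others by Dixon's ratio, where chance gives about 5%. It was the hemocyte marker PPO2, with a level of 10.50 on Cha replicate 4 against 9.15 to 9.51 on the other Cha arrays. None of the 7 probe sets of the member genes had such an array in either group.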

How the results depend on the processing

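Antp kept its direction and its call in each of 20 refits, 0.58 with its probe sets averaged to 1.16 (adjusted p = 0.000293 to 0.0190; without Cha replicate 4 highest), and Scr in each but 1, 0.54 to 0.71; with the replicate block, Scr gave adjusted p = 0.0520. The block left 1 member gene higher in Cha instead of 2; without 1 array in turn the count was 2 to 2, and that of member genes higher in Gad 0 to 0. All probe sets higher in Cha numbered 1254 and higher in Gad 1403. With the replicate block these were 474 and 892, and with Cha replicate 2 and Gad replicate 5, which carry the same letter code, removed 480 and 755. Without 1 array in turn they ran from 675 to 1627 and from 964 to 1579, the Cha count being 675 without Gad replicate 3, 782 without Gad replicate 2 and 784 without Gad replicate 5. Deviations of same-numbered Cha and Gad arrays correlated at -0.37 to 0.03 and in 0 of 5 cases best with their own number. The values thus showed no pairing by number, but so few correlations cannot exclude one. The difference of pb, dim throughout, turned to -0.020 with a second quantile normalization, -0.019 with loess and -0.026 with those 2 arrays removed, and ran from -0.026 to 0.075 without 1 array in turn, below 0 without Cha replicate 2 or Gad replicate 3; the cause was not tested. Other named genes kept direction and call in 710 of 758 refits, and 8 of 36 that passed lost the call when 1 array was left out. With the block, list counts changed to 2 neuron markers in Cha and, in Gad, 2 muscle, 2 neuroblast (7 with array weights) and 1 epithelial marker, while the gap, trithorax, apterous cluster, motor neuron and cell death lists had 0 genes higher in Cha, the Polycomb list 1 in Cha and 0 in Gad, the teashirt list 1 in Cha and the pair-rule list 1 in Gad. Signals below percentile 40 for pb and near it for Scr limit what can be read from them.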
